A study of Mus musculus with 9 samples.

Results

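The genes described here encode the proteasome. They were taken by symbol from the table of read counts, as every row that starts with Psma, Psmb, Psmc, Psmd or Psme followed by a digit, except *Psmb8* and *Psmb9*, and this gave 43 of 24421 rows. Of these, 40 had enough reads to be tested between BAL101553-treated and control tumors, and *Psma8*, *Psmb11* and *Psme2b* did not. *Psmc3ip* has a matching symbol but encodes a recombination factor that binds a proteasome ATPase and is no subunit. Its values are given apart, but it stays in the counts, medians and sums over the members.

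SB28, a glioma line from the mouse, was made to express GFP and luciferase. It was grown in the brains of C57BL/6 mice that received vehicle (control, 3 libraries) or BAL101553 (3 libraries), an oral prodrug of a compound that disrupts microtubules and activates the spindle assembly checkpoint. All 6 tumors came from 1 cell line, treated tumors were taken later than control tumors, so that drug and time of growth cannot be told apart, and the methods describe sorted GFP-positive tumor cells whereas the labels give whole brain tissue. Another 3 libraries from C57BL/6 mice given BAL101553 are labelled astrocytes. The methods do not say how these were obtained or whether the mice carried tumors.

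The proteasome breaks down proteins that are tagged with ubiquitin. Its core particle is a barrel of stacked rings, in which the outer alpha rings form the gate and the inner beta rings hold the protease sites. A regulatory particle caps the core: the ATPases of its base unfold the substrate, and its lid removes the ubiquitin chains. Dividing cells and tumor cells depend on it for the timed destruction of cyclins and other cell-cycle proteins, and when its activity falls short, the transcription factor *Nfe2l1* raises the genes of most subunits together through antioxidant response elements.

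Upstream sequence from RefSeq (build GRCm38.p6) was available for 36 of the 43 members. The core of the antioxidant response element, written TGACNNNGC and searched on both strands in the 250 bases before the start site, was found in 5 of the 36 (13.9%) and in 12.4% of the 17224 genes of the table with such a sequence. The 5 were *Psmb5*, *Psmb6*, *Psmd9*, *Psmc6* and *Psmd12*. The sequences of *Psmb5* and *Psmb6*, which encode protease subunits and carry the element close to the start site, are shown with that of the lid gene *Psmd8*, which had the largest change among the members and no such element in this window. Each reads 5′ to 3′ on the strand of its gene and ends at the base before the RefSeq start site, and capitals mark the element. In the GENCODE annotation, *Psmb5* and *Psmd8* start further upstream, inside these windows.

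*Psmb5*, chr14:54617996-54618245, minus strand: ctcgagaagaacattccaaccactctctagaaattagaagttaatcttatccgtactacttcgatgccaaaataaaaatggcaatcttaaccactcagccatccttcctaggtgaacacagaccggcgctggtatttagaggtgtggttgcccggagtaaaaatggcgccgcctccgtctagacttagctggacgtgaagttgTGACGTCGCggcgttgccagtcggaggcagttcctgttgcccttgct
*Psmb6*, chr11:70525107-70525356, plus strand: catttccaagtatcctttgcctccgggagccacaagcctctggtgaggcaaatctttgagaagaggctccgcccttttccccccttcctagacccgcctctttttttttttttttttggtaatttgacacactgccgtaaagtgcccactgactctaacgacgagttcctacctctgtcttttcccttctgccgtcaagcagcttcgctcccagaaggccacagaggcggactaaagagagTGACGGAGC
*Psmd8*, chr7:29180674-29180923, minus strand: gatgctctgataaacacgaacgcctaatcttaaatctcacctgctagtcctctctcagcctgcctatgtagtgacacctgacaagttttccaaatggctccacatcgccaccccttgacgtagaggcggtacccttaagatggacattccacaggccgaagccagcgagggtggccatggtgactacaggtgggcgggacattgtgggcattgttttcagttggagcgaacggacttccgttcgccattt

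The element started 47 bases before the RefSeq start site in *Psmb5*, 9 in *Psmb6*, 31 in *Psmd9*, 227 in *Psmc6* and 247 in *Psmd12*. The CCAAT box, searched as CCAAT on both strands, was present in 14 of the 36 (38.9%) and in 39% of all genes. Neither share stood far from that of all genes, and a match of letters is a description and not a site of binding.

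The control libraries held 24540452 to 28761388 counted reads, the BAL101553 libraries 26667789 to 34013875 and those labelled astrocytes 22919523 to 29230743. Levels are given as CPM, that is as counts brought to a common library size, after scaling of all 9 libraries by edgeR's trimmed mean of M values. In the 6 tumor libraries, the 10 markers of microglia and macrophages summed to 2.21 to 5.09 CPM and the 3 markers of T and NK cells were at 0. The endothelial marker *Cdh5* lay between 485 and 815 CPM and *Flt1* between 23.8 and 69.7 CPM, but *Pecam1* and *Cldn5* only between 0.29 and 1.45 CPM. The astrocyte marker *Gja1* lay between 641 and 920 CPM and *Aldh1l1* between 20.1 and 43.6 CPM. The astrocyte markers *Gfap*, *Aqp4*, *Slc1a2* and *Slc1a3* lay only between 0.058 and 2.93 CPM. *Cdh5* was at 17.2 to 23.3 CPM in the libraries labelled astrocytes. In the libraries labelled astrocytes, the 6 astrocyte markers summed to 9808 to 12256 CPM, but the 6 markers of oligodendrocytes reached 10495 to 13036 CPM and those of microglia and macrophages 504 to 1101 CPM. They therefore hold transcripts of several brain cell types, and are called by their label below. The methods speak of fewer ex vivo samples per group than the labels list. The paper calls its samples biological replicates. It does not say that the libraries of a group came from separate mice, and p-values then measure only the spread between these libraries.

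The first comparison asks how proteasome genes differed between tumors of BAL101553-treated and of control mice. All 40 tested members had a log2 fold change below 0, against 48.5% of the 12633 genes tested, whereas *Psmc6* (0.02) and *Psme4* (0.06) were above 0 when libraries were scaled by their totals. The median over the members was −0.26, a level 16.6% lower, and that over all genes 0.02. Of the 40 members, 11 fell past the threshold (adjusted p under 0.05, edgeR's quasi-likelihood test) and 0 rose, where 6.09% of all genes fell and 8.64% rose, and 26 members were lower with an unadjusted p under 0.05, as were 15.7% of all genes. In 30 of the 40, each BAL101553 library lay below each control library, which was so for 19.7% of all genes. The fall was small for each gene, from 36.2% in *Psmd8* to 1.59% in *Psme4*, which did not pass the test.

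Summed over the 43 members, the level was 6855, 6981 and 7156 CPM in the control libraries, 6006, 5727 and 5625 CPM in the BAL101553 libraries and 2498, 2408 and 2545 CPM in those labelled astrocytes. The groups did not overlap. The sum was 17.3% lower in BAL101553 than in control tumors, and 11.8% lower when libraries were scaled by their totals alone.

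**Figure D1:**
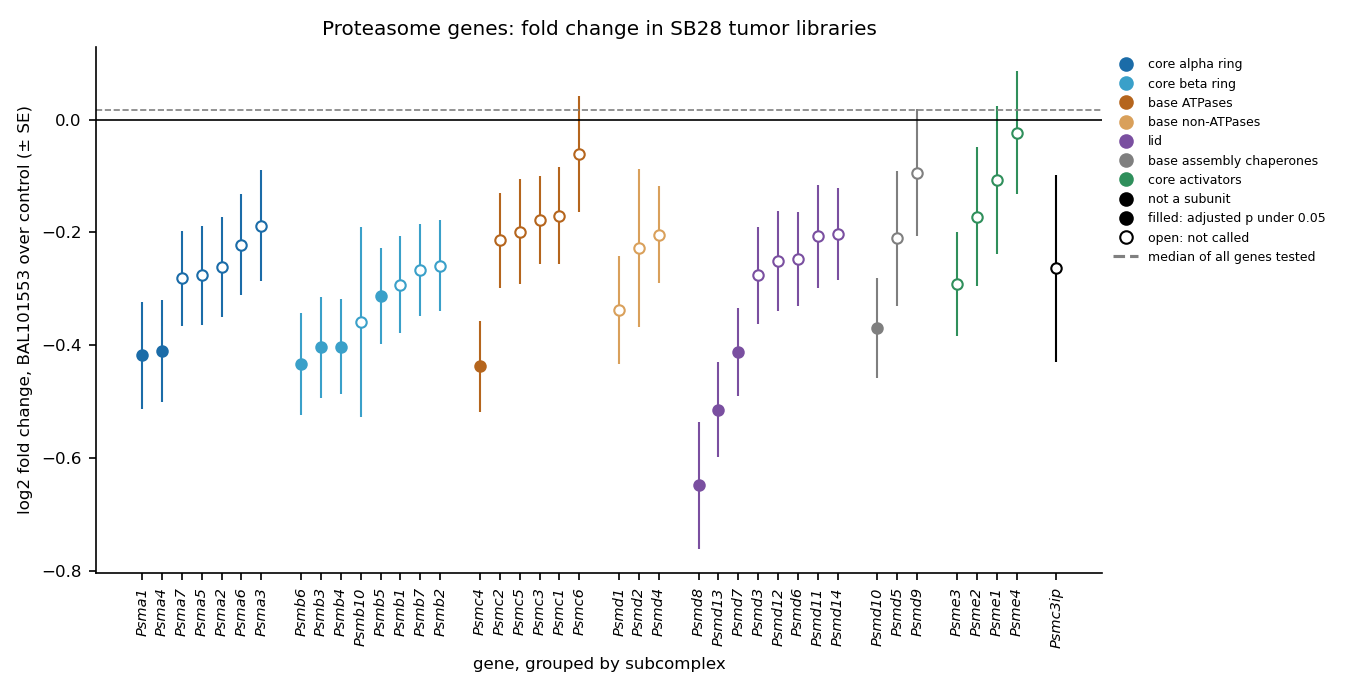
Log2 fold change of BAL101553 over control libraries (y axis, with standard errors) for the 40 tested members (x axis), grouped by subcomplex. Filled points passed the test and open points did not. All points lie below 0, from −0.65 for *Psmd8* to −0.02 for *Psme4*, and below the median of all genes (0.02, dashed), whereas *Psmc6* and *Psme4* were above 0 with libraries scaled by their totals.

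The number of calls depended on the libraries and on the tool: DESeq2 called 20 members lower and 0 higher, beside 10.6% of all genes lower. In edgeR's test without control 3, 0 of 41 tested members and 41 of 12871 genes fell. Of the members, *Psmd13* alone fell without control 1 (0.973% of all genes), and *Psmd7*, *Psmd8* and *Psmd13* without BAL101553 3 (1.54%). Without control 2 or without BAL101553 1, 7 members fell, beside 4.03% and 3.17% of all genes. The median log2 fold change of the members stayed between −0.23 and −0.29 in these fits. It was −0.18 with 6 calls when libraries were scaled by their totals, which moved the median of all genes to 0.10 (425 genes then fell and 1456 rose, in place of 769 and 1091), and −0.16 once the trend of fold changes with transcript length and GC content was taken out.

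The alpha ring gates the core. Of its 7 tested genes 2 passed, where 6.09% of all genes fell, and the median log2 fold change was −0.28. *Psma1* had 121, 110 and 134 CPM in the control libraries and 87.8, 90.4 and 93.4 CPM in the BAL101553 libraries, a log2 fold change of −0.42 ± 0.09 (SE, adjusted p = 0.0283). *Psma4* had 187, 170 and 186 CPM against 131, 146 and 129 CPM (−0.41 ± 0.09, adjusted p = 0.0269). In both, the groups were apart. The other 5 tested genes, *Psma2*, *Psma3*, *Psma5*, *Psma6* and *Psma7*, had log2 fold changes from −0.28 to −0.19 and did not pass. *Psma3* was the 1 gene of the ring whose groups overlapped, since BAL101553 2, at 243 CPM, lay within the control range of 241 to 258 CPM while BAL101553 1 and 3 had 212 and 202 CPM.

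The beta ring holds the protease sites. Its median log2 fold change, −0.34, was the lowest of the subcomplexes, and the differences between these medians were not tested. Of its 8 tested genes 4 passed, where 6.09% of all genes fell. *Psmb6*, which encodes the caspase-like protease subunit, had 154, 157 and 169 CPM in the control libraries and 122, 108 and 124 CPM in the BAL101553 libraries. It fell by 0.43 ± 0.09 on the log2 scale (adjusted p = 0.023). *Psmb5*, the chymotrypsin-like subunit and main target of proteasome inhibitor drugs, had 105, 108 and 116 CPM against 86.3, 92.7 and 84.4 CPM. Its fall of 0.31 ± 0.08 was just inside the threshold (adjusted p = 0.0459). *Psmb7*, the trypsin-like subunit, had 242, 251 and 266 CPM against 208, 215 and 205 CPM, and this difference of −0.27 ± 0.08 did not pass (adjusted p = 0.0641). For all 3 constitutive protease subunits, each BAL101553 library thus lay below each control library, as in 19.7% of all genes.

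*Psmb10* replaces *Psmb7* in the immunoproteasome, the form induced by interferon-γ. Its levels were 30.2, 38.6 and 40.2 CPM in the control libraries and 22.4, 30.1 and 32.0 CPM in the BAL101553 libraries, and the groups overlapped (−0.36 ± 0.17, adjusted p = 0.175). Per kb of transcript, its level divided by that of *Psmb7* in the same library was 0.110, 0.136 and 0.134 in control and 0.095, 0.124 and 0.138 in BAL101553 tumors, so that this ratio overlapped too.

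The structural beta subunits *Psmb3* and *Psmb4* also fell. *Psmb3* had 129, 136 and 149 CPM in the control libraries and 109, 97.9 and 104 CPM in the BAL101553 libraries (−0.40 ± 0.09, adjusted p = 0.0276). *Psmb4* had 208, 223 and 229 CPM against 174, 159 and 163 CPM (−0.40 ± 0.08, adjusted p = 0.0232). The groups were apart for both, and also for *Psmb1* and *Psmb2*, whose log2 fold changes of −0.29 and −0.26 did not pass (adjusted p = 0.0565 and 0.0652).

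In the base, 6 ATPases form the ring that unfolds substrates, and 1 of the 6 passed, where 6.09% of all genes fell. *Psmc4* had 125, 116 and 129 CPM in the control libraries and 90.3, 91.8 and 89.3 CPM in the BAL101553 libraries, a log2 fold change of −0.44 ± 0.08 (adjusted p = 0.0167). The other 5 lay between −0.21 (*Psmc2*) and −0.06 (*Psmc6*). *Psmc6* had 197, 171 and 191 CPM against 173, 196 and 164 CPM, with groups that overlapped (adjusted p = 0.705), although its protein sits in the same ring as that of *Psmc4*. Per kb, the ratio of *Psmc4* to *Psmc6* was 0.986 to 1.05 in control libraries and 0.727 to 0.846 in BAL101553 libraries. It is taken within each library and does not depend on the scaling of libraries. The other genes of their chromosomes, 7 for *Psmc4* and 14 for *Psmc6*, had median log2 fold changes of −0.19 and 0.08. With chromosome medians taken out of each library, *Psmc4* was at −0.25 and *Psmc6* at −0.13. The part of the chromosomes in this ratio was not tested.

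The scaffold subunits *Psmd1* and *Psmd2* and the ubiquitin receptor *Psmd4* are the other base genes among the members. None of the 3 passed in edgeR's test, and 2 had an unadjusted p under 0.05. *Psmd1* was just outside the threshold, with 395, 427 and 380 CPM in the control libraries and 341, 308 and 297 CPM in the BAL101553 libraries (−0.34 ± 0.10, adjusted p = 0.0524). *Psmd2* had 590, 762 and 664 CPM against 670, 518 and 526 CPM. Its groups overlapped, since the highest treated library lay above the lowest 2 control libraries (−0.23 ± 0.14, adjusted p = 0.29). *Psmd4* differed by −0.20 (adjusted p = 0.141).

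The lid, which strips ubiquitin from substrates, held the pair of largest falls. *Psmd8* had 195, 163 and 195 CPM in the control libraries and 106, 129 and 115 CPM in the BAL101553 libraries, a log2 fold change of −0.65 ± 0.11 (adjusted p = 0.0143). *Psmd13* had 101, 90.3 and 100 CPM against 69.9, 65.2 and 67.8 CPM (−0.51 ± 0.08, adjusted p = 0.0132). *Psmd7*, which pairs with the deubiquitinase *Psmd14*, had 223, 235 and 231 CPM against 173, 166 and 176 CPM (−0.41 ± 0.08, adjusted p = 0.0185). In all 8 lid genes among the members, each BAL101553 library lay below each control library, as in 19.7% of all genes. Of the 8, 3 passed, where 6.09% of all genes fell. The others, *Psmd3*, *Psmd6*, *Psmd11*, *Psmd12* and *Psmd14*, had log2 fold changes from −0.28 to −0.20.

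The 3 base assembly chaperones bind the ATPases before the base is complete and leave it afterwards. *Psmd10*, also known as gankyrin, fell from 40.5, 41.6 and 40.3 CPM in the control libraries to 31.5, 32.1 and 30.7 CPM in the BAL101553 libraries (−0.37 ± 0.09, adjusted p = 0.0335). *Psmd5* (−0.21) and *Psmd9* (−0.09) did not pass (adjusted p = 0.25 and 0.589). The values of *Psmd9* overlapped, at 36.9 to 39.1 CPM against 31.3 to 39.5 CPM.

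The core activators open the gate without ubiquitin, and 0 of the 4 tested passed in edgeR's test, 1 of them with an unadjusted p under 0.05. *Psme1* and *Psme2* form the interferon-induced activator that supports antigen processing. *Psme1* had 89.9, 92.8 and 120 CPM in the control libraries and 83.3, 100 and 95.5 CPM in the BAL101553 libraries (−0.11 ± 0.13, adjusted p = 0.595). *Psme2* had 95.7, 97.9 and 122 CPM against 82.9, 101 and 94.2 CPM (−0.17 ± 0.12, adjusted p = 0.358). In both genes control 3 stood above the other libraries, and the log2 fold change without it was 0.03 for *Psme1*. *Psme3*, the nuclear activator, had 130, 123 and 126 CPM against 111, 104 and 92.7 CPM (−0.29 ± 0.09, adjusted p = 0.0687). *Psme4*, known for the breakdown of acetylated histones, had 222, 235 and 209 CPM against 240, 190 and 222 CPM (−0.02 ± 0.11, adjusted p = 0.897).

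*Psmc3ip*, no subunit, had 7.77, 6.51 and 8.09 CPM in the control libraries and 6.01, 5.87 and 6.65 CPM in the BAL101553 libraries (−0.26 ± 0.17, adjusted p = 0.3). *Psma8*, the alpha subunit of the testis, had 0 reads in each of the 6 tumor libraries, which at 3 reads per library allows up to 0.124 CPM in control and 0.102 CPM in BAL101553 libraries. *Psmb11*, the beta subunit of the thymus, had 0 to 5 reads, and *Psme2b*, a near-identical copy of *Psme2* whose reads may be shared with it, 6 to 27 reads.

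**Figure D2:**
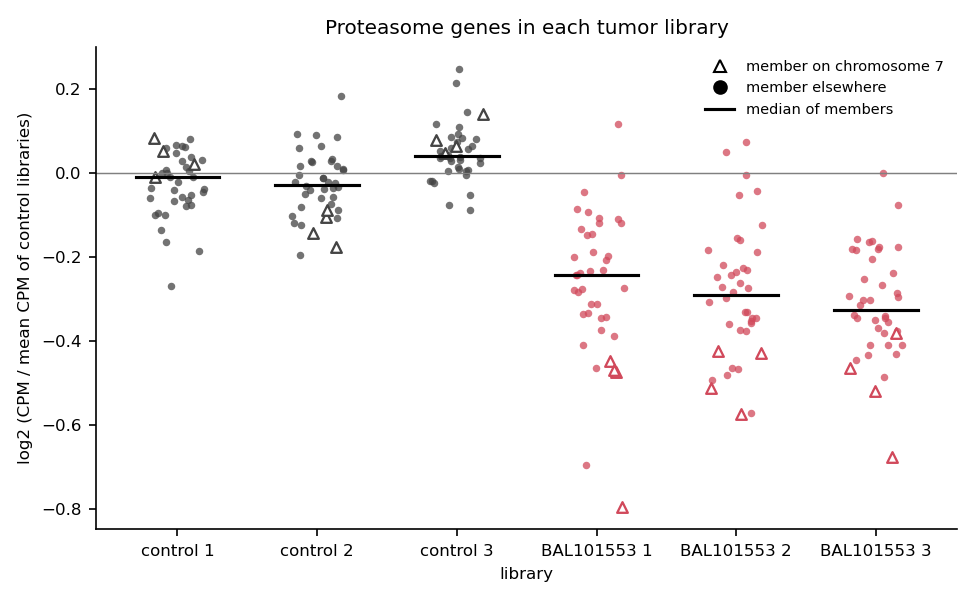
Log2 of the CPM of each of the 40 tested members over its mean in the control libraries (y axis) in the 6 tumor libraries (x axis). Points are genes, triangles the 4 on chromosome 7, and bars the median of the members, which was −0.01, −0.03 and 0.04 in the control libraries and −0.24, −0.29 and −0.33 in the BAL101553 libraries.

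The median of the members was below that of the control libraries in each of the 3 BAL101553 libraries. In BAL101553 1 the members ranged from −0.80 (*Psmd8*) to 0.12 (*Psme4*) relative to their control mean, on the log2 scale.

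The 40 tested members lie on 15 of the 20 chromosomes compared. All 4 tested members on chromosome 7, *Psmd8* (chr7:29174188-29180701), *Psmd13* (chr7:140881968-140898643), *Psmc4* (chr7:28041707-28050101) and *Psma1* (chr7:114264606-114276118), were among the 11 calls, with a median log2 fold change of −0.48. Elsewhere, 7 of the 36 members were called, and the median was −0.25. The genes of chromosome 7 that are no members had the lowest median of all chromosomes, −0.19, and 12.2% of the 911 tested fell. Their median deviation was lowest in BAL101553 1, at −0.23 on the log2 scale. Coordinates are from the GENCODE annotation of GRCm38.

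On chromosome 16, which holds *Psmd2*, the median deviation of the other genes was −0.16, 0.15 and −0.02 in control 1, 2 and 3 and 0.18, −0.08 and −0.07 in the BAL101553 libraries, and *Psmd2* was likewise lowest in control 1 among the control libraries and highest in BAL101553 1 among the treated ones. On chromosomes 12 and 14 the deviations of the other genes in BAL101553 2 were 0.11 and 0.16. Of the 8 tested members there, *Psma3*, *Psma6*, *Psmb5*, *Psmc1*, *Psmc6*, *Psmd6*, *Psme1* and *Psme2*, 7 had their highest treated level in BAL101553 2, as had 9 of the 32 members elsewhere. The largest median fold change of the other genes, 0.14, was on chromosome 12.

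When the chromosome medians of the genes that are no members were taken out of each library, an alternative chosen after seeing the data, the median log2 fold change of the members was −0.25, and 39 of 40 stayed below 0. In this fit 18 members fell, 1 of them on chromosome 7, beside 7.28% of all genes. *Psmd8* was called at −0.47 (adjusted p = 0.0111), while *Psmd13* was at −0.33 (adjusted p = 0.0568), *Psmc4* at −0.25 (adjusted p = 0.0655) and *Psma1* at −0.23 (adjusted p = 0.0941). Of the 11 members called without this step, 7 were called again.

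**Figure D3:**
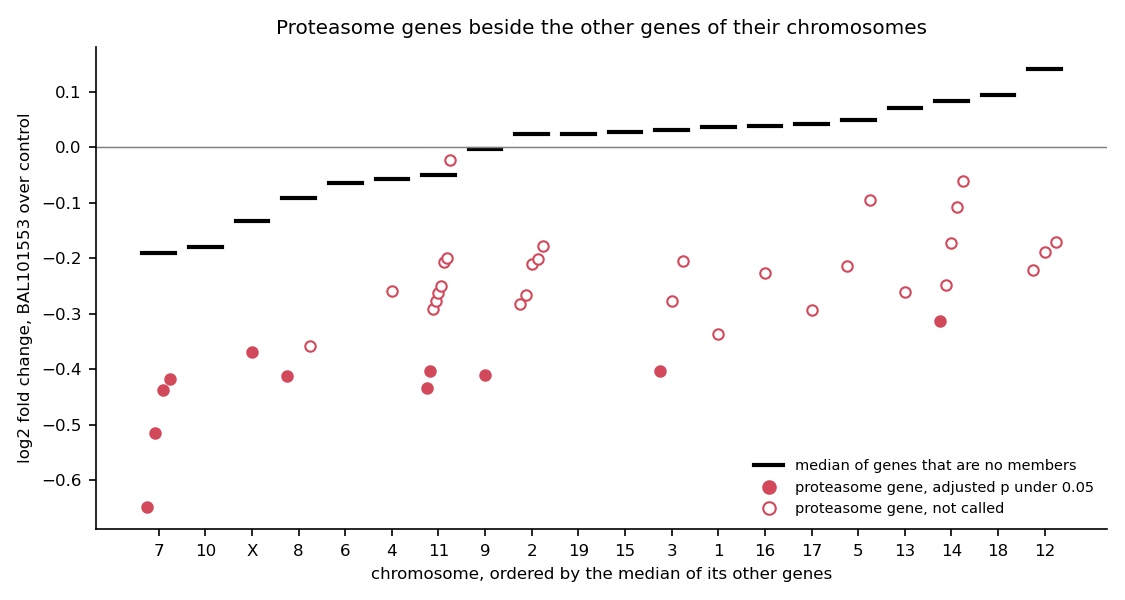
Log2 fold change of BAL101553 over control libraries (y axis) for the 40 tested members (points; filled if they passed the test) on their chromosomes (x axis), beside the median of the genes that are no members (bars). Bars run from −0.19 on chromosome 7 to 0.14 on chromosome 12, and all members except *Psme4* on chromosome 11 lie below the bar of their chromosome.

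The levels of the subunits were compared per kb of transcript. The members include 31 constitutive subunits of the core and regulatory particles. In the control libraries, these lay between 46.2 (*Psmd11*) and 266 CPM per kb (*Psma7*), with a median of 122, a 5.76-fold range. In the BAL101553 libraries, *Psmd13* was lowest and *Psma7*, at 218 CPM per kb, highest, a 6.41-fold range with a median of 101. After *Psma7*, the order of means in the control libraries was *Psmd2* (227 ± 29.2, SD, n = 3), *Psmb7* (218 ± 10.5) and *Psmb6* (201 ± 10.1). The differences between these genes were not tested. The immunoproteasome subunit *Psmb10* was at 27.7 ± 4.12 CPM per kb.

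**Figure D4:**
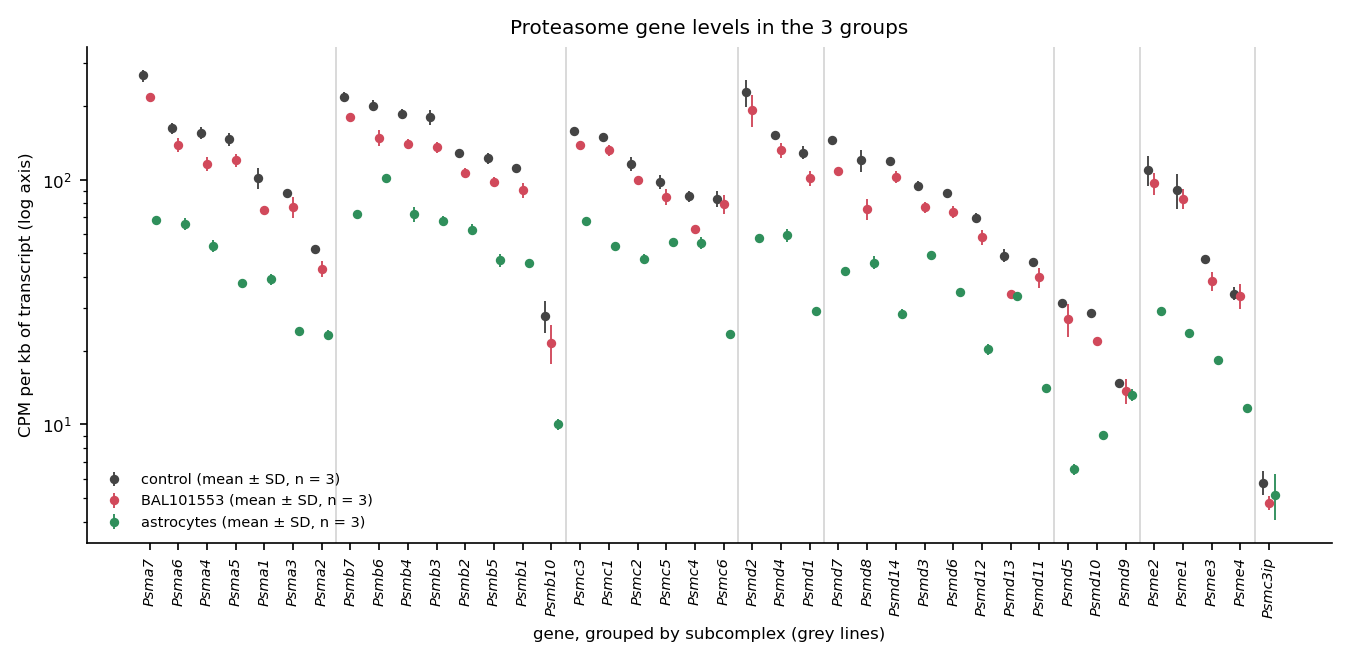
CPM per kb of transcript (y axis, log scale) of 40 members (x axis) in the 3 groups. Points are means and bars SD of 3 libraries. Most genes lie highest in control and lowest in the libraries labelled astrocytes, and *Psmd13*, *Psmd9* and *Psmc3ip* have close levels in BAL101553 and astrocytes.

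Of 15 genes for assembly factors, an inhibitor and other partners, 1 fell (6.67%, beside 6.09% of all genes) and 0 rose. Their median log2 fold change was −0.10. The 1 was *Psmf1*, which encodes an inhibitor of the core, with 38.7, 37.9 and 41.1 CPM in the control libraries and 30.6, 30.9 and 29.2 CPM in the BAL101553 libraries (−0.37 ± 0.09, adjusted p = 0.0375). *Pomp*, the chaperone that completes the core, differed by −0.14 (adjusted p = 0.296), and the alpha ring chaperones *Psmg1* and *Psmg2* by −0.10 and 0.28 (adjusted p = 0.571 and 0.212). The ubiquitin receptor *Adrm1* differed by −0.08 and the deubiquitinase *Usp14* by 0.00 (adjusted p = 0.599 and 0.995).

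Of 6 tested regulators of proteasome genes, 0 passed in edgeR's test. An unadjusted p under 0.05 was seen in 3, as in 4306 of the 12633 genes tested. Of these 3, *Nfe2l1* and *Irf1* (0.37) were higher and *Ngly1* (−0.44) was lower. *Nfe2l1* had 324, 325 and 316 CPM in the control libraries and 410, 336 and 429 CPM in the BAL101553 libraries (0.29 ± 0.11, adjusted p = 0.103). Each BAL101553 library was thus above each control library for this gene. *Nfe2l2* (0.06) and *Ddi2*, the protease that releases the active form of the *Nfe2l1* protein (0.00), had adjusted p of 0.712 and 0.985.

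Of 13 genes for ubiquitin and for factors that bring substrates to the proteasome, 5 fell, where 6.09% of all genes did. Their median was −0.34. *Uba1*, the main ubiquitin-activating enzyme, had 1632, 1472 and 1506 CPM in the control libraries and 982, 1063 and 917 CPM in the BAL101553 libraries (−0.63 ± 0.10, adjusted p = 0.0119). Also lower were *Vcp* (−0.38), an unfoldase, its cofactor *Nploc4* (−0.44), and *Rps27a* (−0.39), which encodes ubiquitin fused to a ribosomal protein. *Ubb*, which encodes a chain of ubiquitin alone, differed by −0.14 and did not pass (adjusted p = 0.362).

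The proteasome genes were not alone in this shift. Of the 8 genes of the chaperonin CCT, a folding machine, 3 fell (*Cct7*, −0.50; *Cct4*, −0.43; *Tcp1*, −0.35), with a median of −0.32. Of the 9 genes of the COP9 signalosome, a relative of the lid, 2 fell (*Cops8*, −0.37; *Gps1*, −0.35), with a median of −0.23. Of 76 tested genes for cytosolic ribosomal proteins, 27 fell and 0 rose, with a median of −0.40. Among all genes tested, 6.09% fell. The differences between these medians and that of the members were not tested. Among marker lists, the summed level of 4 endothelial genes was 722 to 851 CPM in control and 510 to 635 CPM in BAL101553 libraries. Most of it was *Cdh5*, at 690 to 815 and 485 to 564 CPM, which alone of the 4 had groups that did not overlap. The sum of 6 astrocyte genes was 918 to 957 and 666 to 771 CPM, most of it *Gja1*, at 872 to 920 and 641 to 736 CPM. *Gja1* and *Aldh1l1* were lower and *Slc1a3* higher without overlap. Both sums thus rested largely on *Cdh5* and *Gja1* and do not measure the share of a cell type. No gene of these lists was at 0 in all 6 libraries. Their part in the lower proteasome levels was not tested, and in bulk RNA fewer cells of a type and less RNA per cell cannot be told apart.

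**Figure D5:**
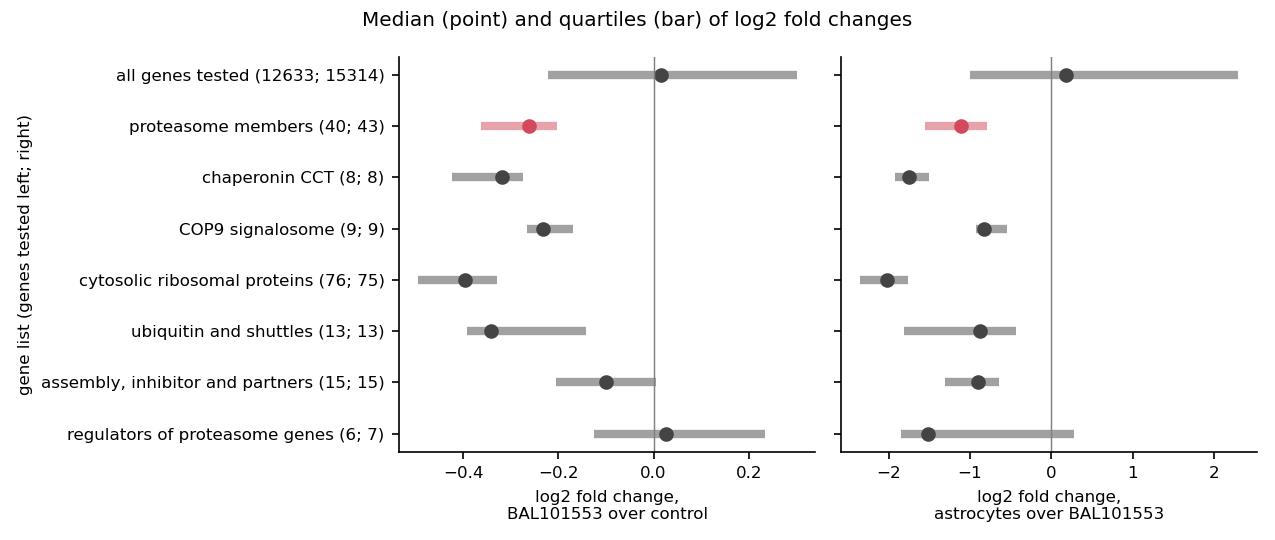
Median (points) and quartiles (bars) of log2 fold changes (x axes) of the proteasome members, of other gene lists and of all genes tested (y axis), for BAL101553 over control (left) and for libraries labelled astrocytes over BAL101553 (right). The members have medians of −0.26 and −1.11, and all genes 0.02 and 0.18.

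The exons of several members overlap another gene, and the sources do not state whether reads were counted by strand. *Psmd13* shares 10.1% of its exon bases with *Sirt3* on the other strand, which had 5.47 to 6.13 CPM in control and 6.18 to 6.91 CPM in BAL101553 libraries. *Psmb7* shares 11.8% with *Nek6*, which had 61.7 to 72.3 CPM in control and 73.9 to 77.5 CPM in BAL101553 libraries. *Psmc3* shares 8.2% with *Slc39a13*, at 97.3 to 149 CPM in control and 141 to 155 CPM in BAL101553 libraries. *Psmd1* shares 3.5% with *Htr2b*, at 6.25 to 12.6 and 2.12 to 3.78 CPM. *Psmc3ip* shares 21.2% with *Mlx*, and *Psmd9* 25.5% with a long noncoding gene. The part of these genes in the members' counts was not tested. *Psmb5* shares 12.1% with the microRNA gene *Mir686*, which was at 0 in all libraries.

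The other comparison sets the libraries labelled astrocytes beside the BAL101553 tumors, which were given the same drug. The groups differ in cell content as the markers show, so the test compares these libraries. *Psma8* and *Psmb11* had enough reads only through the libraries labelled astrocytes and are described apart. Of the other 41 members, 37 fell and 0 rose, where 38.9% of the 15314 genes tested fell and 46.3% rose. The median log2 fold change was −1.11, both over these 41 and over all 43, and that of all genes 0.18. With other scalings the median of all genes rose to as much as 0.39 and that of the members lay between −1.13 and −0.90 over all alternatives. *Psmc4* had the smallest fall (−0.22, adjusted p = 0.021) and did not pass in 7 of these fits, where it lay between −0.24 and 0.00.

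The largest falls were in *Psmd5*, *Psmd14*, *Psme1*, *Psmd1* and *Psmc6*. The base chaperone *Psmd5* had 133, 98.5 and 123 CPM in BAL101553 libraries and 28.0, 28.0 and 30.5 CPM in those labelled astrocytes, a log2 fold change of −2.07 ± 0.13 (adjusted p = 1.85e-06). The deubiquitinase *Psmd14* had 168, 152 and 154 CPM against 43.4, 41.5 and 45.5 CPM (−1.90 ± 0.09, adjusted p = 3.07e-07). *Psme1* had 83.3, 100 and 95.5 CPM against 25.7, 25.7 and 27.3 CPM (−1.86 ± 0.09, adjusted p = 4.96e-07). *Psmd1* and *Psmc6* differed by −1.84 ± 0.09 and −1.80 ± 0.09. In these 5 genes the groups lay far apart.

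By subcomplex, the median was −1.78 for the scaffold and receptor genes of the base, −1.56 for the activators and −1.26 for the lid. It was −1.02 for the 9 beta ring genes, with *Psmb11* still among them. The differences between these medians were not tested. The log2 fold changes of the protease genes *Psmb5*, *Psmb6* and *Psmb7* were −1.09, −0.57 and −1.35, and that of *Psmb10* was −1.14, all past the threshold. The ratio of *Psmb10* to *Psmb7* per kb was 0.131 to 0.150, beside 0.095 to 0.138 in the BAL101553 libraries. Among the activators, *Psme2* and *Psme4* differed by −1.77 and −1.56, and *Psme3* was at 0.466 of its BAL101553 level, all past the threshold.

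Of the standard members 2 did not pass, and both lay above 0 when libraries were scaled by their totals (*Psmd13*, 0.15; *Psmd9*, 0.12). *Psmd13* had 69.9, 65.2 and 67.8 CPM in BAL101553 libraries and 66.0, 64.4 and 69.0 CPM in those labelled astrocytes (−0.06 ± 0.08, adjusted p = 0.468), and *Sirt3*, whose exons overlap it, had 32.8 to 35.4 CPM in the latter. *Psmd9* had 31.3 to 39.5 CPM against 33.0 to 36.4 CPM (−0.09 ± 0.11, adjusted p = 0.461). As a result the ratio of *Psmd13* to *Psmd12*, both lid genes, was 1.58 to 1.73 per kb in the libraries labelled astrocytes, and 0.560 to 0.625 in BAL101553 and 0.688 to 0.725 in control libraries. *Psmc3ip* (0.07) and *Psme2b* (0.05) did not pass either (adjusted p = 0.734 and 0.939).

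The tissue-restricted genes had 5 reads or fewer in each tumor library, so no test of them is given. *Psma8* had 15, 15 and 13 reads in the libraries labelled astrocytes and 0 in each tumor library, which is at least 4.92-fold higher than in BAL101553 when 3 reads per library stand for 0. *Psmb11* had 71, 60 and 40 reads against 1, 2 and 5, a ratio of 22.3 with a 95% counting interval (exact) of 11.1 to 52.4. Per kb they stayed at 0.296 and 0.463 CPM, where the other alpha and beta ring genes had at least 10.02 CPM in these libraries.

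In the same comparison the chaperonin CCT had a median log2 fold change of −1.75, ribosomal proteins −2.02 and the COP9 signalosome −0.83. Of their genes, 8 of 8, 75 of 75 and 9 of 9 fell, where 38.9% of all genes did. The members' median lay between them. The log2 fold changes of *Nfe2l1*, *Nfe2l2* and *Ddi2* were −1.54, −2.15 and −1.51, those of *Pomp*, *Psmg1* and *Psmg2* −0.80, −1.51 and −0.63, and *Ngly1* rose by 0.65. *Nfe2l3*, a relative of *Nfe2l1*, had 0.039 to 0.116 CPM in the BAL101553 libraries and 28.2 to 36.3 CPM in those labelled astrocytes.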

How the data were processed

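RNA from SB28 tumors and from libraries labelled astrocytes was sequenced (stranded libraries, mapped with TopHat, build mm10 per the labels). The authors deposited whole-number read counts per gene, without normalization, for 9 libraries; HTSeq 0.6.1 and featureCounts are named, but which made the table, with which annotation and strand setting, is not given in the sources used here. Of the columns, 0 were left unused.

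Groups were compared with edgeR 4.0.16 under R 4.3.3. Low genes were dropped by filterByExpr, libraries scaled by the trimmed mean of M values, and the quasi-likelihood test was two-sided, with p-values adjusted after Benjamini and Hochberg across the genes tested and a threshold of 0.05. Only the 2 groups compared entered a fit. Standard errors are the log2 fold change over the square root of F. DESeq2 1.42.0, limma 3.58.1, other scalings and filters and each library left out were alternatives. Scripts were tested on simulated data. Intervals and limits cover counting error only.

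Levels per kb use the principal transcript of GENCODE vM21, in place of the merged exons first planned; 23350 names were found there as such and 667 under an older name. Members and lists were chosen with earlier results of these data known. Genes with full statistics were those past the threshold, the protease and activator subunits, the tissue-restricted members and the 5 largest rises and falls of the other comparison; the ratios and overlapping genes were chosen after their values were seen. Some genes of the lists are not reported here by name.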

Additional observations from a re-analysis of the deposited data

How the results depend on the processing

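The members' median log2 fold change in BAL101553 against control tumors kept its direction under all 19 alternatives. It moved from −0.26 to −0.18 with library totals and to −0.16 without the length and GC trend. In place of 11 (6.09% of all genes lower), the calls numbered 20 with DESeq2 (10.6%), 22 with all 9 libraries in one model (8.76%), 18 with chromosome medians removed (7.28%), 6 with library totals (3.36%) and 0 to 10 with 1 library left out (0.319% to 5.74%, lowest without control 3). With control 3 and BAL101553 1 both left out, 0 passed. Fitted with the replicate number as a block, 6 passed (4.01%); the deviations of same-numbered libraries correlated at 0.10, 0.01 and 0.11, so the numbers were not taken to pair them, and not every library correlated best with its own number. In the other comparison the median, −1.11, was −1.06 with DESeq2 and with RLE scaling, −0.93 with upper quartiles and −0.90 with library totals. It was −0.90 with at least 10 counts in every library, a filter that also drops *Psma8* and *Psmb11*. These 2 enter the main fit only through the libraries labelled astrocytes. Members called higher then numbered 0 in place of 2, and those 2 calls are not used as a test. The replicate block changed no call of a member there. The ratio of summed levels moved from 0.83 to 0.88 and from 0.43 to 0.48 with library totals.

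Genes that changed sign included the following, of which *Psmc4* alone was called. With library totals, *Adrm1* was 0.0088, *Ddi2* 0.080, *Psme4* 0.064 and *Usp14* 0.086. With upper quartiles, *Ddi2* was 0.0056 and *Usp14* 0.011. With at least 10 counts in every library, *Ddi2* was 0.0054 and *Usp14* 0.0086. With chromosome medians removed, *Ddi2* was 0.055 and *Psme4* 0.039. Without the length and GC trend, *Adrm1* was 0.029, *Pomp* 0.055, *Psme1* 0.031, *Psme2* 0.013 and *Psmg1* 0.11. With libraries left out (1, or control 3 and BAL101553 1 together), values ranged for *Ddi2* from −0.093 to 0.064, *Nfe2l2* from −0.030 to 0.11, *Psme1* from −0.19 to 0.10, *Psme2* from −0.24 to 0.018, *Psme4* from −0.15 to 0.064, *Usp14* from −0.062 to 0.072 and in the other comparison, *Psmc3ip* from −0.10 to 0.17. Of members not named above, *Psmc6* was 0.023 with library totals and *Psmc1* 0.017 without the length and GC trend. In the other comparison, *Psmd13* and *Psmd9* were 0.15 and 0.12 with library totals, 0.12 and 0.094 with upper quartiles and 0.16 and 0.14 with at least 10 counts in every library, where *Psmc4*, called at −0.22, was 0.0014. Causes were not tested.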
